A study of Mus musculus with 2 samples.

Results

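The genes described here build the cytoskeleton of nerve cells: the neurofilament subunits Nefl, Nefm and Nefh, the related filament genes Ina and Prph, the neuronal tubulin Tubb3, the stathmins Stmn2, Stmn3 and Stmn4, and the growth cone gene Gap43. They were taken by name, as the probes for these 10 genes on the array, which carries 13 such probes among 39429 probes for 29924 gene names. These genes, and the lists set beside them below, were chosen with earlier results of these data known. Counts set beside the share of all genes are therefore descriptions and no independent support. RNA of the 10 genes was compared between Gata6cKO and control ureters of NMRI mouse embryos at E14.5. The Gata6cKO embryos were Tbx18(cre/+);Gata6(fl/fl), with cre recombinase in the Tbx18 locus and both Gata6 copies floxed, and the control embryos were Gata6(fl/?), whose second Gata6 copy is not given and whose labels name no cre. Tbx18 is expressed in the mesenchyme around the ureteric epithelium, so cre acts in cells with a history of Tbx18, and effects of cre or of the changed Tbx18 copy cannot be told apart from those of losing Gata6. The question of the study is which transcripts are deregulated when Gata6 is lost there. Total RNA of 4 samples, 150 ng each, was labelled and hybridised in pairs to 2 two-colour Agilent arrays. On replicate 1 both RNAs were male and the Gata6cKO RNA carried Cy5, and on replicate 2 both were female and carried the dyes in exchange, so sex and dye orientation cannot be told apart. Whether each RNA is that of a single embryo or of pooled embryos is not given in the labels, so spread among these RNAs may be technical. The limma fit has 1 residual degree of freedom per gene and 12.2 prior ones drawn from all genes. Its SEs and p-values therefore rest mostly on spread shared over all genes, within these RNAs alone, and little on the spread of the gene itself.

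Neurofilaments are the intermediate filaments of axons, assembled from light, medium and heavy subunits together with alpha-internexin, and in peripheral neurons with peripherin, and they set the calibre of the axon. Microtubules are the tracks for axonal transport: neurons add a beta-tubulin of their own, and the stathmins bind tubulin dimers and so tune how fast microtubules grow and shrink. The ureter has no neuronal cell bodies in its epithelium, but autonomic nerve fibres and ganglion cells lie in and beside its outer wall, and these transcripts are the usual marks of such cells.

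Transcripts of the neuronal cytoskeleton were higher in the RNA labelled Gata6cKO, a direction that rests on the labels of genotype and dye. Of the 10 genes, 8 rose at a limma adjusted p under 0.05 and 0 fell, where 2.22% of the 19875 genes tested rose and 2.36% fell. The 8 rises lay between 1.70-fold for Ina and 3.69-fold for Stmn4, and 6 of the 10 genes were at least 2-fold higher on both arrays, where 0.186% of all genes were. Nefh and Gap43 did not pass, at 1.28-fold and 1.23-fold. The median log2 ratio of Gata6cKO over control was 1.35 over the 10 genes and 0.00 over all genes tested. In bulk RNA, more cells of a type and more RNA per cell cannot be told apart.

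The median raw spot signal lay between 224 and 442 in the 4 RNAs over median local backgrounds between 23 and 85, and between 67.2% and 68.5% of spots were well above background. No spot was saturated. The probe of Gata6 itself had normalised intensities of 22508 and 22457 in the RNA labelled Gata6cKO, against 12515 and 16355 in control. This is the opposite of a loss, at a log2 ratio of 0.65 ± 0.12 (limma adjusted p = 0.00573, n = 2 arrays). Which part of Gata6 was floxed is not given in the labels, so whether this probe lies outside the deleted part, where it would check nothing, is unknown, and the genotype labels have no check from it. Gata6cKO stands below for the RNA so labelled. The number of arrays limits the precision. All 13 urothelial and all 11 mesenchymal markers listed for the labelled tissue passed the filter on dim probes. Levels below are normalised intensities, fluorescence in arbitrary units after background correction and normalisation, and they are compared only within a probe.

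What the array reads of each transcript is a stretch of 60 bases. A probe each of Nefm, Nefh and Prph is given 5′ to 3′ to show how far apart the filament genes are at the probed site. Capitals mark the longest run that each shares with a probe of another of the 10 genes.
Nefm: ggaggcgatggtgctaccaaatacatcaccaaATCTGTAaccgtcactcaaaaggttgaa
Nefh: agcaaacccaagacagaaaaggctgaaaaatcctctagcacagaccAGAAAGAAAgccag
Prph: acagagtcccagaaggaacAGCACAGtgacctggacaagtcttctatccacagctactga
On mm9 these are chr14:68738193-68738252, minus strand, for Nefm, chr11:4839396-4839455, minus strand, for Nefh, and chr15:98889042-98889101, plus strand, for Prph. Across all 13 probes no run shared between genes was longer than 9 bases. The probe of Nefl (chr14:68705638-68705698, plus strand) lies 32555 bases from that of Nefm on the opposite strand, and the other genes of the set lie on other chromosomes, apart from Stmn4, which is also on chromosome 14.

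The light and medium neurofilament subunits were among the largest rises of all genes tested. Nefm, the medium subunit, whose long tail reaches out from the filament, had normalised intensities of 1802 and 1794 in Gata6cKO, against 495 and 517 in control. Both Gata6cKO values stood more than 3-fold above both control values, and replicates of a genotype lay close together. The log2 ratio was 1.83 ± 0.11 (moderated SE, n = 2 arrays), a 3.56-fold higher level (limma adjusted p = 1.61e-06), with 1.87 on replicate 1 and 1.80 on replicate 2. Nefl, the light subunit that forms the filament core, had 3894 and 3380 in Gata6cKO, against 1287 and 982 in control. Here too the groups were far apart, and the ratio was the larger on replicate 2, with log2 ratios of 1.60 and 1.78 and a mean of 1.69 ± 0.11 (3.23-fold; limma adjusted p = 2.69e-06, n = 2 arrays). By size of rise, Nefm was rank 5 and Nefl rank 7 of all genes tested.

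Nefh, the heavy subunit that mature axons add last, was dim. Its brighter probe had 144 and 136 in Gata6cKO, against 117 and 103 in control. The Gata6cKO values were the higher ones without overlap, but in control 2 and 1 of 4 spots were well above background on replicates 1 and 2, so control has only an upper limit. Against that limit the measured Gata6cKO level of Nefh was 1.25-fold higher, a value that carries no error. The measured log2 ratio was 0.35 ± 0.11 with a 95% interval from 0.11 to 0.59, so the rise may be smaller than 1.25-fold. This log2 ratio did not pass (limma adjusted p = 0.116, n = 2 arrays). The value and the call depended on the processing: with Agilent's processed signals the log2 ratio was 0.94 (limma adjusted p = 0.000211) and with the deposited series values 0.96 (limma adjusted p = 9.71e-08), and with an intensity trend in the prior 0.35 passed (limma adjusted p = 0.00485). With no background correction it was 0.39 and did not pass (limma adjusted p = 0.0593), and which step makes the difference was not tested. The other Nefh probe, shown above, was not well above background in either genotype, at 79.2 and 83.9 in Gata6cKO, against 83.1 and 75.9 in control, and gives no ratio.

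The filament genes Prph and Ina rose too, with smaller ratios than Nefl and Nefm, although the 95% intervals of Prph (1.04 to 1.52) and Nefl (1.45 to 1.93) overlapped. Prph encodes peripherin, the intermediate filament of peripheral and autonomic neurons. It had 731 and 710 in Gata6cKO, against 307 and 287 in control. Replicates differed little and the groups did not overlap, with a log2 ratio of 1.28 ± 0.11 (2.43-fold; limma adjusted p = 1.40e-05, n = 2 arrays), 1.25 on replicate 1 and 1.31 on replicate 2. Ina encodes alpha-internexin, which appears early in developing neurons. Its brighter probe had 771 and 694 in Gata6cKO, against 438 and 425 in control, again with no overlap. The log2 ratio was 0.76 ± 0.11 (1.70-fold; limma adjusted p = 0.000924, n = 2 arrays), and the call was lost with median centring in place of loess (0.76, limma adjusted p = 0.141).

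The Ina probes differed in size of the rise. The brighter one (chr19:47098781-47098840, mm9) gave log2 ratios of 0.82 and 0.71 on replicates 1 and 2. The other, which starts 569 bases further along the transcript (chr19:47099350-47099409, mm9), gave 0.29 and 0.32, at levels of 363 and 386 in Gata6cKO, against 296 and 309 in control. Among all 26200 kept probes fitted one by one, where 2.23% rose, it did not pass, with a log2 ratio of 0.31 ± 0.11 (limma adjusted p = 0.176, n = 2 arrays), and the mean of both probes passed at 0.53 (limma adjusted p = 0.0102). The gap between the probes was wider than the spread of their spots, whose SD within an array lay between 0.029 and 0.109 for these probes.

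**Figure D1:**
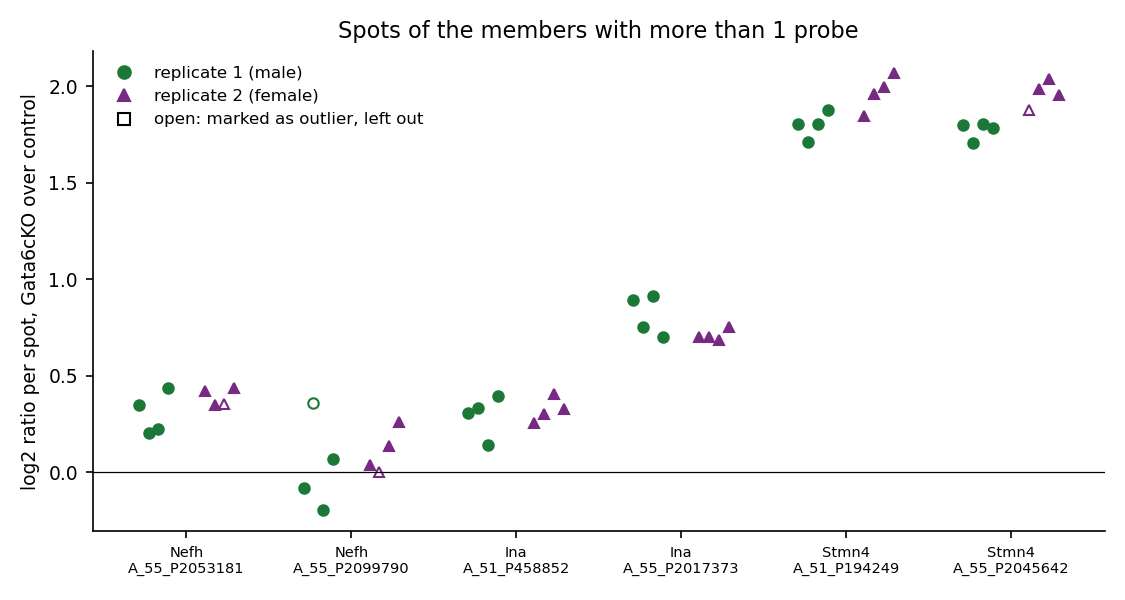
Log2 ratio of Gata6cKO over control (vertical axis) of every spot of the probes of Nefh, Ina and Stmn4 (horizontal axis), with replicate 1 as circles, replicate 2 as triangles and spots marked as outliers open. The 2 Stmn4 probes lie at the same height near 1.88, and the 2 Ina probes lie apart, at means of 0.31 and 0.76.

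Tubb3, the class III beta-tubulin that is widely used to stain neurons, had 1191 and 1226 in Gata6cKO, against 477 and 426 in control. Every Gata6cKO value was more than 2-fold above every control value. Its log2 ratio was 1.42 ± 0.11 (2.68-fold; limma adjusted p = 7.79e-06, n = 2 arrays), with 1.32 on replicate 1 and 1.52 on replicate 2. The other tubulins, which dividing and non-neuronal cells also use, gave no call. Of 16 tested genes of the list of other tubulins and Stmn1, none passed in limma and 1, Tubb2b at 0.31 ± 0.14, had an unadjusted p under 0.05 (n = 2 arrays). Its log2 ratio was -0.02 on replicate 1 and 0.64 on replicate 2. The list median was 0.02 and its log2 ratios lay between -0.13 and 0.31. The brightest of them were Tubb5 at 0.08, Tuba1a at 0.16 and Tuba1b at 0.01, which turned to -0.06 with median centring and was 0.25 and -0.23 on replicates 1 and 2.

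All 3 neuronal stathmins rose, whereas Stmn1, the stathmin of proliferating cells, stood at a log2 ratio of 0.15 ± 0.12 (limma adjusted p = 1.00, n = 2 arrays). Stmn4 had 2688 and 2364 in Gata6cKO, against 772 and 605 in control. It showed the largest rise of the 10 genes and was rank 4 of all genes tested, with log2 ratios of 1.80 on replicate 1 and 1.97 on replicate 2 and a mean of 1.88 ± 0.11 (3.69-fold; limma adjusted p = 1.61e-06, n = 2 arrays). A further Stmn4 probe gave 1.77 and 1.99. It is no independent check, since the probes (chr14:66980442-66980501 and chr14:66980426-66980485, mm9, plus strand) share 44 of 60 bases. The first 30 of these shared bases are shown to mark the probed site.
Stmn4: cgggtgggataaggtctgtgtgcgtctgtt
Stmn3 had 1600 and 1565 in Gata6cKO, against 626 and 505 in control. The groups did not overlap, and the log2 ratio was 1.49 ± 0.12 (2.82-fold; limma adjusted p = 6.80e-06, n = 2 arrays), with 1.36 on replicate 1 and 1.63 on replicate 2. Stmn2, also called SCG10, which marks growing and regenerating axons, had 8169 and 8634 in Gata6cKO, against 4313 and 3553 in control. Of the 10 genes it differed most between arrays, with log2 ratios of 0.92 (1.89-fold) on replicate 1 and 1.28 (2.43-fold) on replicate 2, and its mean of 1.10 ± 0.12 passed (2.15-fold; limma adjusted p = 0.000102, n = 2 arrays).

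Gap43, a membrane protein of the growth cone that calmodulin binds, was bright in both genotypes and did not pass. It had 6115 and 5717 in Gata6cKO, against 4822 and 4821 in control. The Gata6cKO values were the higher ones without overlap, but the log2 ratio of 0.29 ± 0.11 (1.23-fold; limma adjusted p = 0.235, n = 2 arrays) did not pass, with a 95% interval from 0.06 to 0.53. It passed under none of the 7 other settings tried, and its log2 ratio there lay between 0.25 and 0.30.

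**Figure D2:**
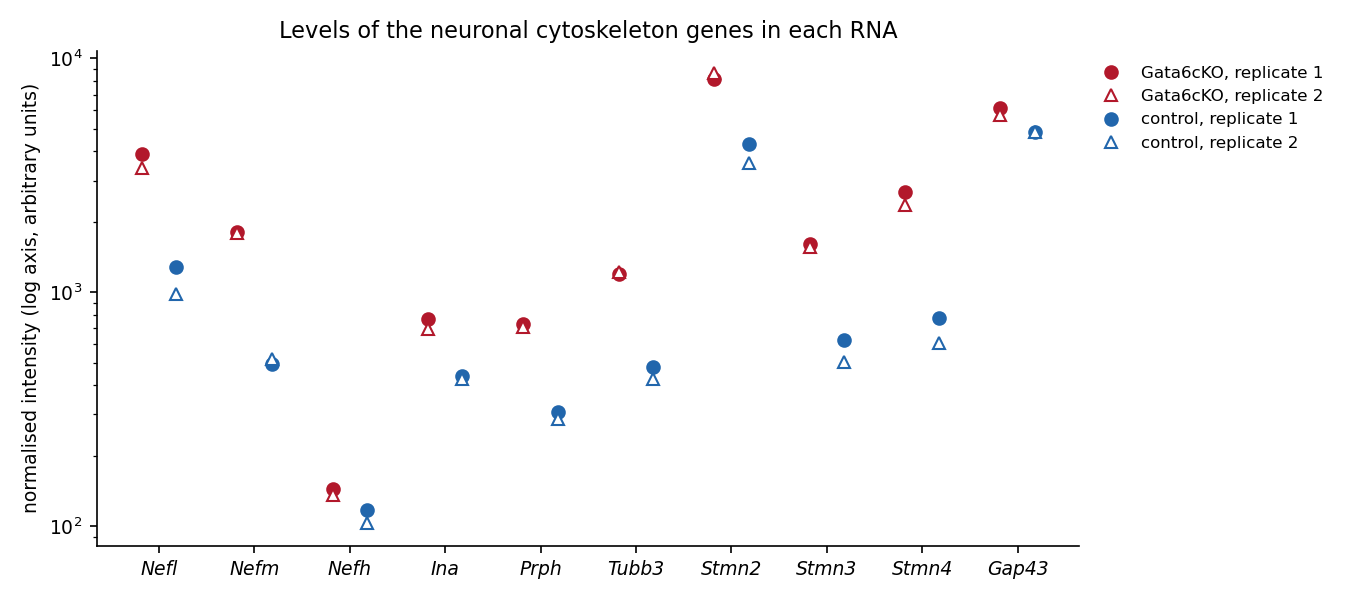
Normalised intensity (vertical log axis, arbitrary units) of the probe used for each of the 10 genes, with Gata6cKO left of control, replicate 1 filled and replicate 2 open. All 10 genes had both Gata6cKO values above both control values, and heights of different genes cannot be compared, since each has a probe of its own.

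Both Gata6cKO levels exceeded both control levels for all 10 genes, where 15.9% of all genes tested had that order. In order of size, the log2 ratios ran from Stmn4 and Nefm through Nefl, Stmn3, Tubb3, Prph, Stmn2 and Ina to Nefh and Gap43. Each of the 9 pairs of neighbours in this order had overlapping 95% intervals, which does not show that neighbours are alike. The widest step was that of 0.41 between Ina and Nefh, with Ina the higher one on both arrays. The intervals of Stmn4 (1.64 to 2.13) and Gap43 (0.06 to 0.53) did not overlap. Differences between genes were not tested.

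**Figure D3:**
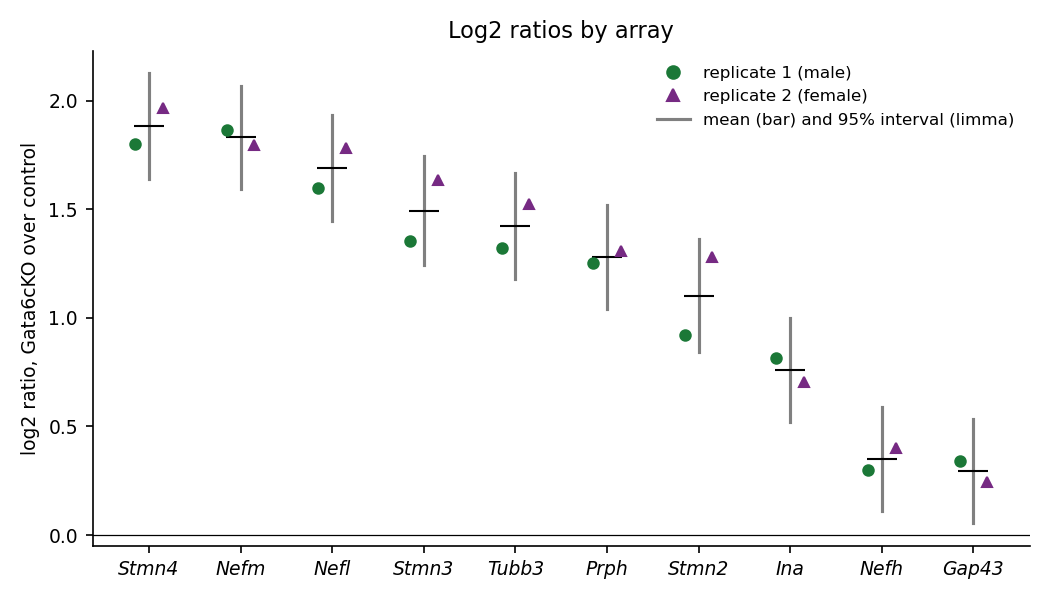
Log2 ratio of Gata6cKO over control (vertical axis) for each gene in order of size, on replicate 1 (circles) and replicate 2 (triangles), with the mean as a bar and the 95% interval of the limma fit as a line (n = 2 arrays). The means run down in small steps, with 1.88 for Stmn4, 1.10 for Stmn2 and 0.29 for Gap43.

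For the 10 genes the arrays gave similar ratios. Over all genes tested, the log2 ratios of the 2 arrays correlated at Pearson r = 0.412. The gap between replicate 1 and replicate 2 lay between 0.05 and 0.36 on the log2 scale for the 10 genes, with a median of 0.14, against 0.16 over all genes tested. The ratio was the higher one on replicate 2 for 7 of the 10 genes and for 52.6% of all genes, and whether sexes differ was not tested, with 1 array each. Within an array, the SD over the spots of a probe lay between 0.02 and 0.17, with a median of 0.06 over the kept probes.

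**Figure D4:**
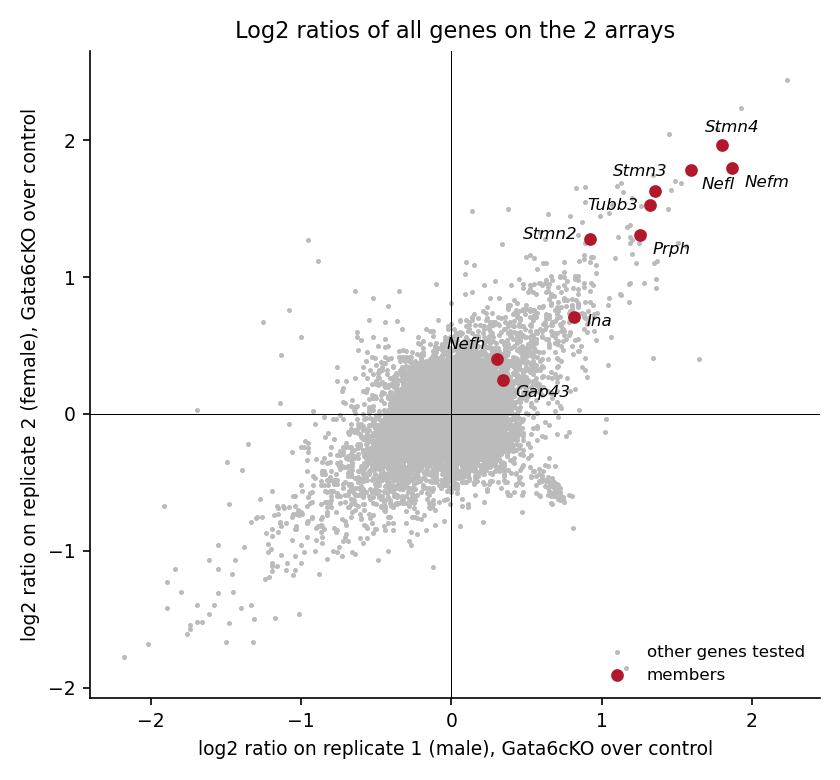
Log2 ratio of Gata6cKO over control on replicate 1 (male, horizontal axis) against replicate 2 (female, vertical axis) for all genes tested (grey) and the 10 genes (red, named). Of the 10, 8 lie beyond 0.7 on both arrays, and Nefh and Gap43 lie at the edge of the main cloud.

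Promoter sequence was at hand for 4 of the 10 genes in the RefSeq table of build GRCm38.p6, all of which rose. The promoters of Stmn3 and Prph, the ones with a match to GATA or TATAAA, are shown. They cover the 250 bases before the start, 5′ to 3′ on the strand of the gene. Capitals mark the motifs searched on both strands, none of which overlap here: GATA, the core that GATA factors bind, TATAAA, the TATA box, and CAGCTG, an E-box. A match on the opposite strand appears as its reverse complement.
Stmn3: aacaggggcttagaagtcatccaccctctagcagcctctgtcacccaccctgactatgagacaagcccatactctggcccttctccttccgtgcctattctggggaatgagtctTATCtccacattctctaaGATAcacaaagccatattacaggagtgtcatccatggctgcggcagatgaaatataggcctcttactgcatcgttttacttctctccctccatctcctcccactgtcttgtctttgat
Prph: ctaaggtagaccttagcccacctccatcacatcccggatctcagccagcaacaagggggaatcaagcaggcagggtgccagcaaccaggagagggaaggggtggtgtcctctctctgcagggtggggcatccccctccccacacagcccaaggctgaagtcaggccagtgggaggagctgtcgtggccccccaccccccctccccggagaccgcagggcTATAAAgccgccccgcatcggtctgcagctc
The Stmn3 window (chr2:181314501-181314750, minus strand) holds GATA at 2 places, a motif found in 53.6% of 32851 promoter windows of this length. The Prph window (chr15:99054924-99055173, plus strand) holds TATAAA once, which 12.4% of all windows have. Of the other promoters, that of Ina (chr19:47014431-47014680, plus strand) holds CAGCTG once, as do 13% of windows, and that of Tubb3 (chr8:123411303-123411552, plus strand) holds none of the motifs. The G and C content was 48.8% for Stmn3, 65.2% for Prph, 68.0% for Tubb3 and 70.8% for Ina, and the median over all windows was 52.4%.

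Other genes of the axonal cytoskeleton moved unevenly. Of 25 tested microtubule-associated proteins and motors, 3 rose, 1 fell and 21 did not pass, with a list median of 0.08, and 4.58% of all genes passed in either direction. Dcx, the doublecortin of young migrating neurons, rose by 1.22 ± 0.14 (2.33-fold; limma adjusted p = 0.000176). Kif5a, a kinesin heavy chain of neurons that carries neurofilaments along axons, rose by 1.04 ± 0.11 (2.05-fold; limma adjusted p = 0.000102), though its other kept probe stood at 0.13. Kif5c, another neuronal kinesin, rose by 0.42 ± 0.11 (limma adjusted p = 0.0464), a call that was lost with median centring, processed signals and no filter. Kif5b, the kinesin heavy chain of most cells, fell by 1.49 ± 0.12 on the log2 scale (2.82-fold lower; limma adjusted p = 7.79e-06).

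Outside the neurofilaments, 1 of 9 tested intermediate filament genes fell and none rose, where 2.36% of all genes fell and 2.22% rose. The list median was 0.03. The fall was that of Lmnb1, a nuclear lamin, at -0.55 ± 0.14 (limma adjusted p = 0.0421), with -0.23 on replicate 1 and a call that was lost with median centring, with no filter and with the mean of kept probes. Vim, the vimentin of mesenchymal cells, and Lmna, a lamin of differentiated cells, stood at log2 ratios of -0.12 and -0.14, which did not pass. Among 14 tested kinases, calmodulins and factors of filament or stathmin turnover, 1 rose and none fell, with a median of 0.00. It was Mapk10, the neuronal JNK kinase, at 0.78 ± 0.12 (limma adjusted p = 0.00152, lost with median centring). Among the brightest genes of that list, Calm2 stood at 0.21 and Tardbp at 0.02, which turned to -0.05 with median centring, and neither passed.

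Of 23 tested growth cone and pan-neuronal genes, 6 rose, 1 fell and 16 did not pass, with a median of 0.28. For comparison, 2.22% of all genes tested rose and 2.36% fell. Elavl3, a neuronal RNA-binding protein, rose by 1.38 ± 0.13 (2.61-fold; limma adjusted p = 2.55e-05), Celf3, another such protein, by 1.24 ± 0.16 (limma adjusted p = 0.0508 with no filter), and Rtn1, a reticulon of neuronal endoplasmic reticulum, by 1.14 ± 0.13. Syt1, a calcium sensor of synaptic vesicles, fell by 0.97 ± 0.12 on the log2 scale (1.97-fold lower; limma adjusted p = 0.000231). The neuronal genes on the array therefore did not all move one way.

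Among markers of nerve cell types, most of those of autonomic neurons rose, and most of those of sensory and motor neurons did not pass. For comparison, 2.22% of all genes tested rose and 2.36% fell. Of 12 tested markers of autonomic neurons, 9 rose and none fell, with a median of 0.97, and their summed normalised intensity was 26408 and 24955 in Gata6cKO, against 15105 and 11767 in control. A further autonomic marker, the acetylcholine receptor subunit Chrna3, did not pass the filter on dim probes. Among those with the smallest p of that list were Tlx2 (1.55 ± 0.12), a homeobox gene of autonomic neurons, Dbh (1.30 ± 0.11), the enzyme that makes noradrenaline, and Isl1 (1.23 ± 0.11), a LIM homeobox gene. Of 6 tested markers of sensory neurons, with a median of 0.005, 2 rose, among them the neurotrophin receptor Ntrk3 (1.02 ± 0.12), which autonomic neurons also use. Pou4f1, a defining factor of sensory neurons, stood at 115 and 112 in Gata6cKO, against 115 and 119 in control, and Prdm12, Avil and Scn10a did not pass that filter. Of 4 tested motor neuron markers, with a median of 0.20, 1 rose, the acetylcholine transporter Slc18a3 (1.38 ± 0.12), which parasympathetic neurons share, and Mnx1, a defining factor of motor neurons, did not pass the filter.

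Of 9 tested markers of glia and neural crest, 3 rose and 1 fell, where 2.22% of all genes rose and 2.36% fell. The list median was 0.19, with a summed intensity of 89965 and 97823 in Gata6cKO, against 95188 and 86782 in control. Sox10 (0.46 ± 0.11), Foxd3 (0.45 ± 0.12) and Ngfr (0.44 ± 0.12) rose, and Mbp, a myelin protein, fell by 0.47 ± 0.12, and these 4 calls were lost with median centring and with no filter. That of Mbp was also lost with processed signals (limma adjusted p = 0.0516) and with the mean of kept probes (-0.33, limma adjusted p = 0.123). Sox2 did not pass the filter on dim probes. Of 6 tested chromaffin and adrenal cortex markers, with a median of 0.08, 1 rose, Chgb (0.47 ± 0.12), a secretory granule protein that neurons also hold, a call that was lost with the same 2 settings. The summed intensity of that list was 16408 and 15044 in Gata6cKO, against 16881 and 12634 in control, and the adrenal marker Pnmt did not pass the filter. The part of nerve cells, of glia or of adrenal tissue in the rise of the cytoskeleton genes was not tested.

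Some markers of other cell types changed as well on the same arrays, where 2.22% of all genes tested rose and 2.36% fell. Of 8 tested skeletal muscle markers, with a median of 0.535, 5 rose, among them Myh3 (1.04 ± 0.11), Myl1 (0.81 ± 0.11), Myog (0.79 ± 0.11) and Tnnt1 (0.60 ± 0.11). The levels of Myh3 overlapped between genotypes, at 2315 and 942 in Gata6cKO, against 1205 and 425 in control. Those of Myl1, Myog and Tnnt1 did not overlap. The list sum was 37871 and 28681 in Gata6cKO, against 32049 and 29046 in control. Of 13 urothelial markers, with a median of -0.58, 7 fell and none rose, with the smallest p for Upk1b (-1.98 ± 0.12), Upk1a (-1.54 ± 0.11), Upk2 (-1.41 ± 0.11) and Grhl3 (-1.14 ± 0.11), and the list sum was 173137 and 155235 in Gata6cKO, against 208719 and 203745 in control. Of 11 markers of the ureteric mesenchyme, 2 rose, among them Aldh1a2 (1.18 ± 0.11), and 1 fell, Myh11 (-0.81 ± 0.12). The median of that list was -0.20, below 0, whereas its sum was the higher one in Gata6cKO on each array, at 155769 and 163876, against 138058 and 156051 in control. Their part in the result was not tested either. With median centring the calls of Myl1, Myog, Tnnt1 and Myh11 were lost.

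**Figure D5:**
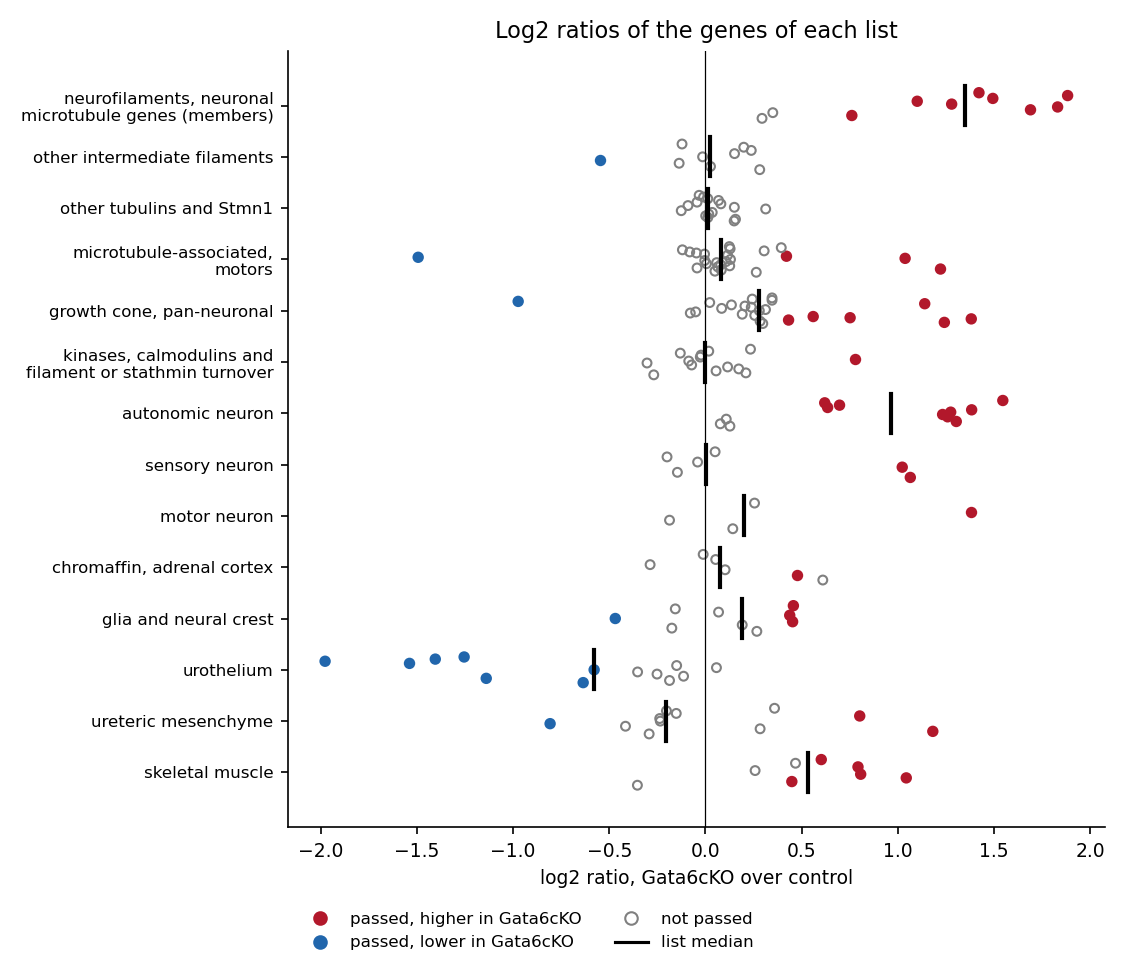
Log2 ratio of Gata6cKO over control (horizontal axis) of each tested gene of the 10 cytoskeleton genes (top row, named members) and of the other lists, with genes that passed filled in red (higher) or blue (lower), others open, and the list median as a black line. The medians of the top row and of the autonomic neuron list lie at 1.35 and 0.97, and that of the other tubulins lies at 0.02.

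Outside the 10 genes, those whose pair of log2 ratios lay nearest to the median pair of the set, 1.29 on replicate 1 and 1.42 on replicate 2, were sought by Euclidean distance over the 2 arrays. The nearest were Dbh (1.28 and 1.33), Inhba, a subunit of activin (1.17 and 1.37), Slc7a14, a lysosomal transporter (1.19 and 1.29), Isl1 (1.20 and 1.27) and Wt1, a transcription factor of the mesothelium and nephron (1.19 and 1.25). Their distances ran from 0.09 for Dbh to 0.19 for Wt1, and with 2 arrays such likeness is a description only.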

How the data were processed

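RNA from 4 ureter samples was measured on 2 two-colour arrays, each pairing a Gata6cKO and a control RNA, on 1 slide scanned at once, per the file headers. The authors' scanner files, made with Agilent Feature Extraction 10.7.3.1 per the submitters' processing notes, give the raw mean intensity of each spot, its local background and a processed intensity, as their headers state. The series values the authors deposited are a score with no value between -1 and 1, read as a fold whose sign gives the direction. Its log2 correlated with the processed ratios at Pearson r = 0.985 (replicate 1) and r = 0.980 (replicate 2) across probes, and its median was 1 on both. How spots were summarised is not given in the sources used here.

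In R 4.3.3 with limma 3.58.1 and data.table (1.17.8), background was corrected with normexp (offset 50) and ratios were normalised by loess; control spots and outliers had weight 0. Spots were averaged per probe. Probes with at least 3 of 4 spots well above background in 1 genotype on both arrays were kept (26200 of 39429, and 12 of the 13 probes described), and the brightest stood for its gene. Levels were scaled between arrays on mean intensity (Aquantile). Log2 ratios, all turned to Gata6cKO over control, were fitted with lmFit and eBayes (two-sided, Benjamini-Hochberg over 19875 genes, threshold 0.05), with 1 residual and 12.2 prior degrees of freedom, and the code was tested on simulated data. Symbols followed the RefSeq table of GRCm38.p6, where 28328 probes matched by accession. Coordinates of probes are those of the files (mm9), and promoters come from RefSeq. There were 0 unused per-sample columns. Genes named beside the 10 are up to 4 of each list that passed, with the smallest p, the 3 brightest of 3 lists and the 5 nearest in ratio, and Gata6, Tubb2b, Stmn1 and markers near or below background were picked after their values were seen. Some genes of the lists are not reported here by name. The genes and lists were chosen with earlier results of these data known. Other settings tried are Agilent's processed signals, median centring, no background correction, no filter, the mean of kept probes, the deposited series values, an intensity trend in the prior and each array by itself.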

Additional observations from a re-analysis of the deposited data

How the results depend on the processing

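Of the 8 rises among the 10 genes, Nefl, Nefm, Prph, Tubb3, Stmn2, Stmn3 and Stmn4 passed under all 7 other settings that allow a test, and Ina under 6 of them. The median log2 ratio over the 10 genes was 1.57 with processed signals and 1.58 with the deposited series values, and 1.42 and 1.29 without replicate 1 and without replicate 2, where no residual degree of freedom is left and so no test. At least 2-fold higher were 7 genes without replicate 1 and 6 without replicate 2, a count added after seeing the data. Over all genes, 90 rose and 100 fell with median centring, 255 and 231 with no filter (30011 genes tested), and 680 and 804 with the deposited series values, against 441 and 470. Over the other lists, 16 genes rose and 7 fell with median centring, against 33 and 12. Of the genes whose values were followed through the settings, which are the 10 and those named from the lists, 4 that had not passed turned sign. Tardbp was -0.048 with median centring and -0.001 with the mean of kept probes, and ran from -0.019 without replicate 1 to 0.054 without replicate 2. Tuba1b was -0.063 with median centring, and -0.227 without replicate 1 against 0.25 without replicate 2. Tubb5 was 0.178 without replicate 1 and -0.019 without replicate 2, and Tuba1a 0.345 and -0.032. The cause of these shifts was not tested. Signal over background limits Nefh, whose control level is only an upper limit.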
